A study of Mus musculus with 18 samples.

Results

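The 4 genes described here act on the path from DNA to mature RNA: Srsf10 in splicing, Twistnb and Supt4a in transcription, and Ssbp2 as a DNA-binding partner of transcription complexes. They are 4 of the 157 genes that could be named on a custom mouse array. Each is read by 1 probe (in 2 spots per array) whose name carries an accession that RefSeq lists for the gene. The probe names begin with Mm_ncRNA, a prefix for non-coding RNA, and only probes with this prefix were named here. All 4 passed the filter on dim probes, as did 74 of the 157 named genes. The genes were picked because they stood out in particular comparisons of these same arrays. Srsf10 and Twistnb were picked for folic acid withdrawal in M-Wnt, Srsf10 and Ssbp2 for M-Wnt over E-Wnt controls, and Supt4a and Ssbp2 for metM-Wnt compared with M-Wnt controls. In those comparisons, and in ones built from them, the values of the gene concerned are a description with no test. That leaves 34 of the 48 pairs of gene and comparison for a test, 14 of which share no array with the comparison that chose the gene.

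RNA came from 3 mouse lines of triple-negative breast cancer, of which E-Wnt and M-Wnt derive from mammary tumors and metM-Wnt from a liver metastasis, with 3 arrays for each line in each medium and 18 arrays in all. Cells grew for 72 h either in control medium, with 2.2 µM folic acid and regular serum, or in folic acid-free medium with dialyzed serum, so folic acid and serum were changed at once. Every array also carried RNA of NIH3T3 mouse fibroblasts as the common reference, and each value is a log2 ratio of sample over reference. Each cell type or tumour stage is represented by 1 line, so a difference between lines cannot be told apart from a difference between these particular cultures. Arrays of a group are biological replicates, according to the design text. Folic acid is the precursor of the carriers of one-carbon units, which cells need to make purines, thymidylate and methionine.

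The proteins belong to different machines. Srsf10 is an SR-like splicing factor that binds pre-mRNA: in its phosphorylated form it promotes the use of particular exons, and when dephosphorylated, as after heat shock, it represses splicing. Twistnb, now called Polr1f, is a subunit of RNA polymerase I, the enzyme that transcribes ribosomal RNA genes. Supt4a is the small subunit of DSIF, the factor that with Supt5 holds RNA polymerase II at promoter-proximal pauses and later helps it to elongate. Ssbp2 binds single-stranded DNA and stabilises Ldb1, the adaptor that joins LIM-domain proteins and DNA-binding factors into transcription complexes.

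The probes are shown because each gene's values rest on a single 60-nucleotide sequence, as the scanner files give it. Capitals mark the 21 nucleotides at positions 40 to 60 of the Supt4a probe that another probe of the array carries on the opposite strand.
Srsf10 probe: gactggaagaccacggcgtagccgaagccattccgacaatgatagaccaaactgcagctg
Twistnb probe: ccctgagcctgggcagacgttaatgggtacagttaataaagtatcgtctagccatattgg
Supt4a probe: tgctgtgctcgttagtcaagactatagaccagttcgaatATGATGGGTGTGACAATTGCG
Ssbp2 probe: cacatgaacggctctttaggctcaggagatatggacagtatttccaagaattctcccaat
Opposite-strand probe: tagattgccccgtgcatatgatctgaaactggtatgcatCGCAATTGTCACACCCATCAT
The GC content was 55.0% in the Srsf10 probe, 46.7% for Twistnb, 45.0% for Supt4a and 43.3% for Ssbp2, against a median of 41.7% over all 80520 probes. No other probe shared 16 or more nucleotides with any of the 4, on either strand. RefSeq lists 5 transcripts for Srsf10, 1 for Twistnb, 4 for Supt4a and 26 for Ssbp2, and which of them, or which strand, a probe reads was not determined here. Mouse also has Supt4b, a near-identical copy of Supt4a with no probe of its own named here, so the Supt4a value may include it.

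All 4 probes lay well above background in both spots and both colours on 18 of 18 arrays. The background-subtracted red signal, which is the sample's, ranged from 2308 to 9115 for Srsf10 and from 1150 to 5550 for Twistnb. It ranged from 3838 to 19010 for Supt4a and from 1089 to 4721 for Ssbp2. The paired spots of a probe differed by a median of 0.07 to 0.11 on the log2 scale. The mean red signal of whole arrays differed between groups: it was 1964 to 3722 in M-Wnt without folic acid, 2260 to 2837 in metM-Wnt without folic acid and 3268 to 3502 in metM-Wnt controls, but 4129 to 6649 in all E-Wnt arrays and in M-Wnt controls. The dimmest array, M-Wnt withdrawal replicate 3, had 1964. Its part in the results was not tested beyond leaving it out. Arrays also lay on 5 slides, and all metM-Wnt arrays were on slides of their own, so slide and line cannot be told apart for metM-Wnt. M-Wnt and E-Wnt arrays of the same medium shared no slide either. These lines met only where M-Wnt controls and E-Wnt arrays without folic acid shared a slide.

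Ssbp2 separated the lines most clearly. In E-Wnt control medium its log2 ratios were -2.03, -1.79 and -1.82, and without folic acid they were -1.96, -1.95 and -1.87. In M-Wnt they were -0.60, -0.44 and -0.47 with folic acid and -0.67, -0.69 and -1.01 without it. The metM-Wnt arrays gave -1.05, -0.73 and -0.91 with folic acid and -1.02, -0.96 and -0.97 without it. All 6 E-Wnt arrays lay below all 12 arrays of the other lines, whatever the medium, and every array lay below the NIH3T3 reference.

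In folic acid-free medium, which had no part in choosing Ssbp2, its level was 2.20-fold higher in M-Wnt than in E-Wnt. The log2 difference was 1.14 (95% CI 0.89 to 1.38, limma, adjusted p = 4.08e-07), with 3 arrays on each side and no overlap. Against E-Wnt, metM-Wnt was 1.92-fold higher in that medium, by 0.94 (95% CI 0.70 to 1.19, limma, adjusted p = 3.67e-06), again without overlap. With slide as a fixed block the M-Wnt difference was 1.08 (limma, adjusted p = 0.00534), and no such fit was possible for metM-Wnt. The fit joins M-Wnt and E-Wnt across slides through M-Wnt controls. Those controls took part in choosing Ssbp2, so the value is not independent of the choice. Differences of this kind were common on the array: limma called 45% of the 41079 features between M-Wnt and E-Wnt and 43.4% between metM-Wnt and E-Wnt in folic acid-free medium, at an adjusted p under 0.05. Of the 4 genes, 2 (Srsf10 and Ssbp2) were called in the first comparison and 3 (these and Supt4a) in the second. The direction of both Ssbp2 differences held under each scaling tried, but median centring in place of loess shrank them to 0.49 (limma, adjusted p = 0.178) and 0.30 (limma, adjusted p = 0.412) and ended the calls. When the arrays were centred on the median of the tested features, a setting added after seeing the data, the differences were 0.89 (limma, adjusted p = 0.000344) and 0.70 (limma, adjusted p = 0.0028).

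The same order stood in control medium, where Ssbp2 was chosen and its values are a description. M-Wnt lay 1.38 above E-Wnt, metM-Wnt lay 0.98 above E-Wnt, and metM-Wnt lay 0.40 below M-Wnt on the log2 scale. The last value was -0.77 with median centring and -0.61 with centring on the tested features, and limma's call of it was lost in 4 of 10 other settings and in 5 of 6 runs without 1 array (-0.48 to -0.32). Between metM-Wnt and M-Wnt without folic acid the difference was -0.19 (95% CI -0.43 to 0.05, limma, adjusted p = 0.349), and the groups overlapped. In that comparison limma called 7.73% of features, and of the 4 genes it called Supt4a.

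After loess, withdrawal did not give a called difference in Ssbp2 in any line. Control arrays of each line also took part in choosing Ssbp2. The choice favours high M-Wnt controls, which by itself pushes the M-Wnt withdrawal difference below 0. In M-Wnt its 3 arrays without folic acid all lay below the 3 controls, by 0.29 (95% CI of the difference -0.53 to -0.05, limma, adjusted p = 0.089). The lowest of them, at -1.01, was the dimmest array, and without it the difference was -0.17 (limma, adjusted p = 0.349). Median centring gave -0.97 (limma, adjusted p = 0.0333) and centring on the tested features -0.65 (limma, adjusted p = 0.0129), both past the threshold. Within the shared slide, against M-Wnt control replicate 3 alone, the value after loess was -0.32 and was not called. In E-Wnt the difference was -0.04 (95% CI -0.28 to 0.20) and in metM-Wnt -0.08 (95% CI -0.32 to 0.16). The responses of metM-Wnt and E-Wnt differed by -0.04 (95% CI -0.38 to 0.30). After loess the intervals in E-Wnt and metM-Wnt leave room for moderate shifts either way, and that in M-Wnt lies below 0. None of the 3 reaches the size of the differences from E-Wnt.

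Srsf10 followed a similar order across lines but also differed between media in M-Wnt. Its log2 ratios in E-Wnt were 0.53, 0.49 and 0.46 in control medium and 0.64, 0.60 and 0.66 without folic acid. In M-Wnt controls they were 1.40, 1.55 and 1.71, the highest group, and without folic acid 1.01, 0.98 and 1.23. In metM-Wnt they were 1.31, 1.38 and 1.05 with folic acid and 1.37, 1.46 and 1.08 without it. All 6 E-Wnt arrays were thus below the other 12, while M-Wnt and metM-Wnt arrays ran into each other.

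**Figure D1:**
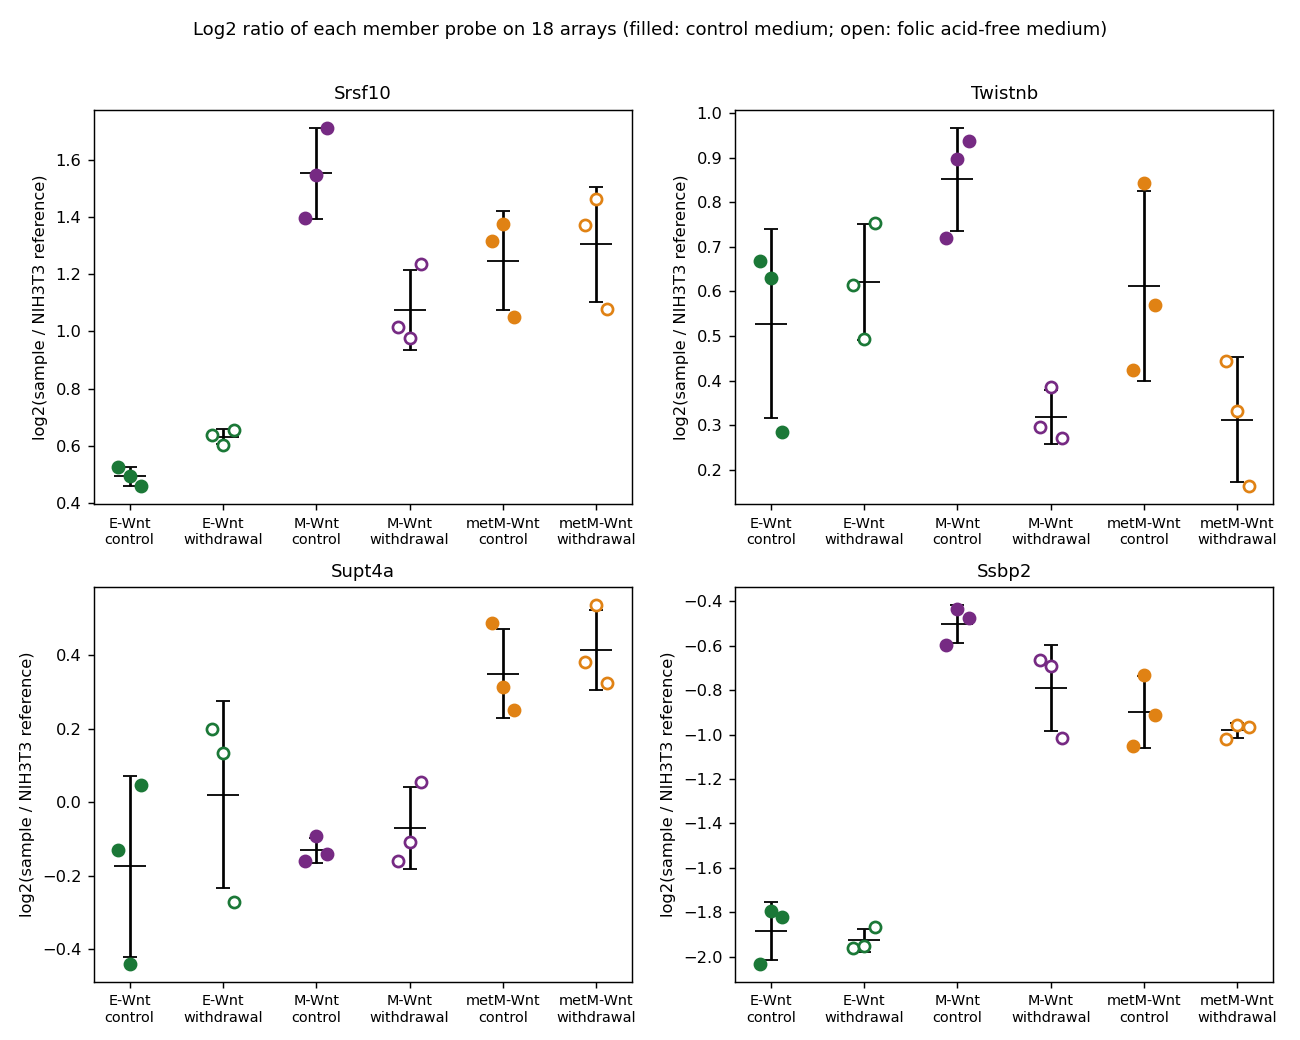
Log2 ratio of sample over NIH3T3 reference (y axis) for each gene in 6 groups of line and medium (x axis); points are single arrays, filled in control medium and open in folic acid-free medium, and bars are the mean ± SD of 3 arrays. The E-Wnt arrays lie lowest for Ssbp2 (-2.03 to -1.79) and Srsf10 (0.46 to 0.66), the metM-Wnt arrays lie highest for Supt4a (0.25 to 0.54), and Twistnb groups overlap widely.

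In the comparison that shares no array with those that chose Srsf10, metM-Wnt against E-Wnt in folic acid-free medium, Srsf10 was 1.59-fold higher in metM-Wnt. The log2 difference was 0.67 (95% CI 0.41 to 0.93, limma, adjusted p = 0.000283) and the groups did not overlap. Median centring brought this difference to -0.01 (SE 0.25, limma, adjusted p = 0.986), so whether it is seen at all rests on the scaling. Under that scaling the median difference of all tested features was -0.40, and with the arrays centred on the tested features Srsf10 differed by 0.40 (limma, adjusted p = 0.0356). M-Wnt exceeded E-Wnt in the same medium by 0.44 (95% CI 0.18 to 0.70, limma, adjusted p = 0.00749), a comparison whose M-Wnt arrays also took part in choosing the gene. That difference was -0.27 under median centring, 0.14 with centring on the tested features (limma, adjusted p = 0.462) and 0.21 with slide as a fixed block (limma, adjusted p = 0.612), where its SE rose from 0.12 to 0.24.

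In control medium Srsf10 was higher in metM-Wnt than in E-Wnt by 0.75 (95% CI 0.49 to 1.01, limma, adjusted p = 8.88e-05). The E-Wnt controls in this comparison also chose the gene, and the choice favours low E-Wnt controls, which by itself raises the difference. Here the whole-array background was 44.1% of features called, and among the 4 genes Srsf10, Supt4a and Ssbp2 were called, Ssbp2 in a difference that is a description. Median centring gave 0.51 for Srsf10 (limma, adjusted p = 0.141). Against M-Wnt, metM-Wnt lay lower by 0.30 in control medium without overlap of arrays (95% CI of the difference -0.57 to -0.04, limma, adjusted p = 0.148). The M-Wnt arrays of either medium had a part in choosing the gene. Without folic acid it lay higher by 0.23 (95% CI -0.03 to 0.49, limma, adjusted p = 0.295). With centring on the tested features the first passed (-0.50, limma, adjusted p = 0.0427), and with the red channel alone the second did (0.39, limma, adjusted p = 0.0291). Between M-Wnt and E-Wnt controls, the contrast that chose it, Srsf10 differed by 1.06. There 45.6% of features were called, with 2 of the 4 genes, Srsf10 and Ssbp2, the ones chosen on it.

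Folic acid withdrawal in M-Wnt, also a choosing contrast, went with a lower Srsf10 by 0.48 on the log2 scale, from a mean of 1.55 ± 0.16 (SD, n = 3) to 1.08 ± 0.14 (SD, n = 3). The 3 withdrawal arrays lay on the slide of control replicate 3, and against that array alone the difference was -0.64, which limma did not call. Median centring gave -1.17 and centring on the tested features -0.85. The call was also lost without M-Wnt control replicate 3 (-0.40) or M-Wnt withdrawal replicate 1 (-0.45) or 2 (-0.43). In this comparison 18.4% of features were called, and with them 2 of the 4 genes, Srsf10 and Twistnb, both chosen on it.

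The other lines did not share that difference at a size the arrays could call. In E-Wnt Srsf10 was higher without folic acid on all 3 arrays than on any control array, by 0.14 (95% CI -0.12 to 0.40, limma, adjusted p = 0.832). Its spread in E-Wnt was small: the SD over 3 arrays was 0.03 in either medium, and only 3.02% (control) and 1.25% (withdrawal) of features had a smaller one. The SE of the difference, fitted over all 18 arrays, was 0.12, and the difference was not called with the E-Wnt arrays alone either. In metM-Wnt the difference was 0.06 (95% CI -0.20 to 0.32, limma, adjusted p = 0.907). Limma called 0.0389% of features on withdrawal in E-Wnt and 0.404% in metM-Wnt, and none of the 4 genes in either. At an unadjusted p under 0.05 limma had 3292 features in E-Wnt, none of the 4 genes among them, and 5433 in metM-Wnt, among them Twistnb.

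The withdrawal response of Srsf10 was lower in M-Wnt than in E-Wnt by 0.62 (95% CI of the difference -0.98 to -0.25) and differed between metM-Wnt and M-Wnt by 0.53 (95% CI 0.16 to 0.90), both built on the contrast that chose it. Between metM-Wnt and E-Wnt, the pair not built on it, the responses differed by -0.08 (95% CI -0.45 to 0.29, limma, adjusted p = 0.876). The backgrounds of these differences between responses were 6.86%, 5.09% and 0.0852% of features called. The calls among the 4 genes numbered 1 (Srsf10, as a description), 0 and 0. That 1 call was lost in 9 of 12 runs without 1 array, and median centring gave -1.44.

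After loess, Supt4a was highest in metM-Wnt in both media, on slides that held no other line. In E-Wnt its log2 ratios were -0.13, -0.44 and 0.05 with folic acid and 0.20, 0.14 and -0.27 without it. In M-Wnt they were -0.16, -0.09 and -0.14 with folic acid and -0.16, -0.11 and 0.05 without it. In metM-Wnt they were 0.49, 0.31 and 0.25 with folic acid and 0.38, 0.54 and 0.32 without it. Every metM-Wnt array lay above every array of the other lines, and the E-Wnt arrays were the most scattered.

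Neither folic acid-free comparison of metM-Wnt shares an array with the one that chose Supt4a. There metM-Wnt was 1.40-fold above M-Wnt, a log2 difference of 0.48 (95% CI 0.19 to 0.78, limma, adjusted p = 0.0425). It was 1.31-fold above E-Wnt, a difference of 0.39 (95% CI 0.10 to 0.69, limma, adjusted p = 0.0303). Both calls were narrow. The first was lost without M-Wnt withdrawal replicate 1 (0.44, limma, adjusted p = 0.16) or 2 (0.47, adjusted p = 0.145), and without metM-Wnt withdrawal replicate 1 (0.50, adjusted p = 0.0833), 2 (0.42, adjusted p = 0.176) or 3 (0.53, adjusted p = 0.0656). The second was lost without E-Wnt withdrawal replicate 3 (0.25, limma, adjusted p = 0.139) and without metM-Wnt withdrawal replicate 1 (0.41, adjusted p = 0.0566) or 2 (0.33, adjusted p = 0.112). Median centring turned the difference from E-Wnt to -0.28, centring on the tested features gave 0.12 (limma, adjusted p = 0.69), and the difference from M-Wnt was 0.55 and 0.54 under these settings (limma, adjusted p = 0.693 and 0.201).

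In control medium metM-Wnt exceeded E-Wnt by 0.52 in Supt4a (95% CI 0.23 to 0.82, limma, adjusted p = 0.00541), with metM-Wnt control arrays that also chose the gene. The choice favours high metM-Wnt controls, which by itself raises this difference. Median centring (0.29, limma, adjusted p = 0.576) and centring on the tested features (0.46, limma, adjusted p = 0.115) ended this call. It exceeded M-Wnt by 0.48, the choosing contrast, where 9.33% of features were called and, of the 4 genes, Supt4a and Ssbp2. That Supt4a value was 0.15 with median centring and 0.31 with centring on the tested features, neither called, and limma's call was lost in 6 of 6 runs without 1 array (0.41 to 0.53). M-Wnt and E-Wnt differed in Supt4a by 0.04 with folic acid (95% CI -0.25 to 0.34) and by -0.09 without it (95% CI -0.39 to 0.20). Withdrawal differences were 0.19 in E-Wnt (95% CI -0.10 to 0.49), 0.06 in M-Wnt (95% CI -0.23 to 0.35) and 0.06 in metM-Wnt (95% CI -0.23 to 0.36), none of them called by limma. Responses to withdrawal differed from E-Wnt by -0.13 in M-Wnt (95% CI -0.55 to 0.28) and by -0.13 in metM-Wnt (95% CI -0.55 to 0.29).

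**Figure D2:**
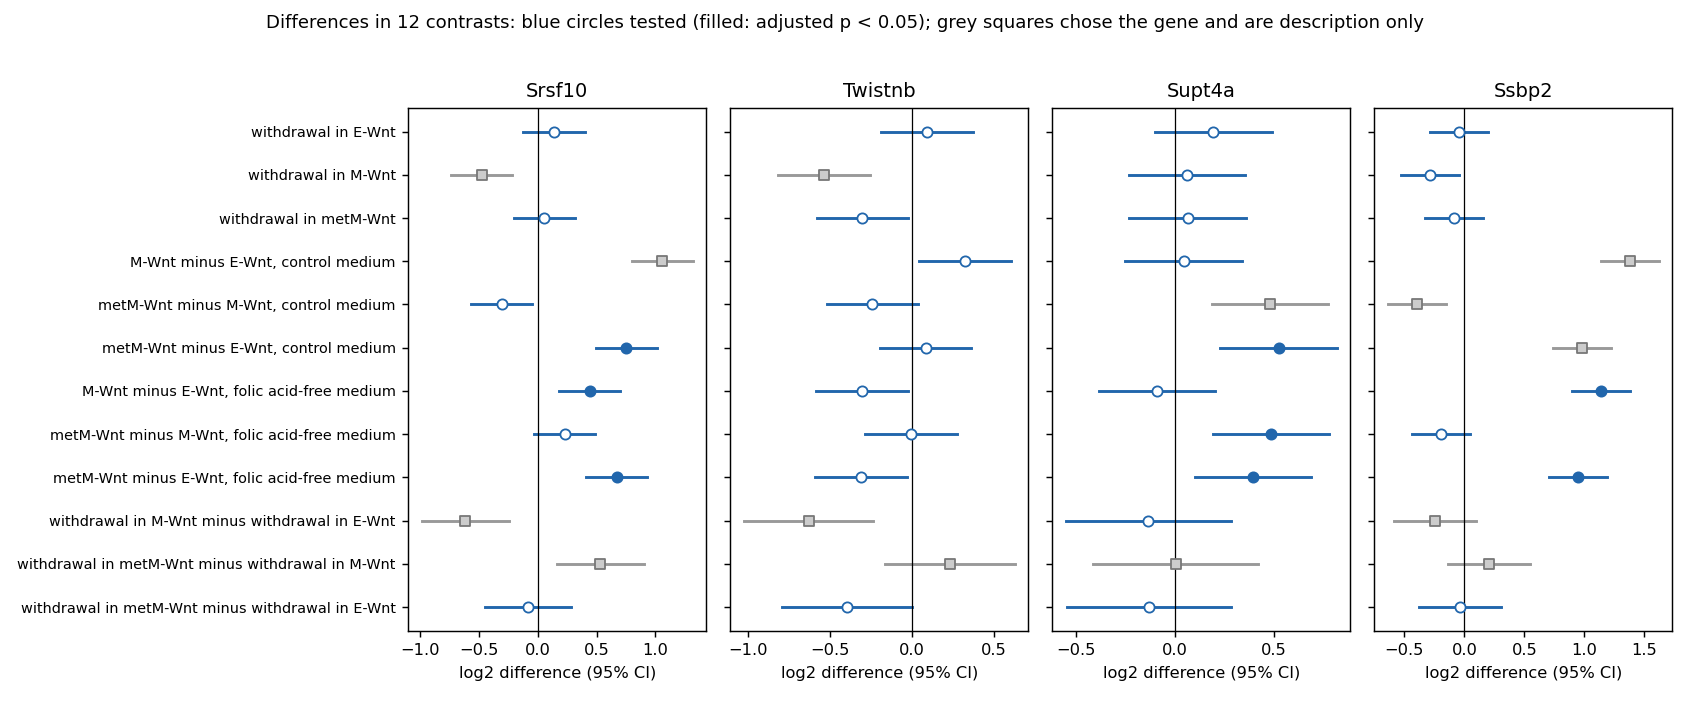
Log2 difference with its 95% CI (x axis) for each gene in 12 comparisons (y axis); blue circles were tested and are filled where the limma adjusted p is under 0.05, and grey squares are comparisons that chose the gene or are built from one. The filled circles number 3 for Srsf10, 0 for Twistnb, 3 for Supt4a and 2 for Ssbp2. Those that share no array with a comparison that chose the gene number 1, 0, 2 and 2, and the figure does not set them apart.

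Another probe carries the last 21 nucleotides of the Supt4a probe on the opposite strand. It would pair with the other strand of that stretch, so it is no second reading of the same target. It was much dimmer, with a red signal between 24.4 and 106, yet above background in both spots on 18 of 18 arrays. Signals of that size are close to the offset of 50 used in background correction, which shrinks the log2 ratios of this probe. Its mean log2 ratio was 0.57 ± 0.07 in metM-Wnt controls, 0.45 ± 0.05 in metM-Wnt without folic acid, 0.25 ± 0.07 in M-Wnt controls and 0.21 ± 0.07 in M-Wnt without it. In E-Wnt it was 0.17 ± 0.16 with folic acid and 0.45 ± 0.20 without it (all SD, n = 3). In control medium metM-Wnt lay above E-Wnt by 0.40 on this probe (limma, adjusted p = 0.0069), as it did on the Supt4a probe. Above M-Wnt it lay by 0.32, which limma did not call (adjusted p = 0.0811). In folic acid-free medium this probe made neither call of the Supt4a probe, with -0.01 on this probe between metM-Wnt and E-Wnt (limma, adjusted p = 0.966) and 0.24 between metM-Wnt and M-Wnt (limma, adjusted p = 0.215). Over the 18 arrays the ratios of the probes had r = 0.79, and over the 6 group means r = 0.85, a description of arrays that share the reference and the scan. Whether the probes read each other's transcripts was not tested.

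**Figure D3:**
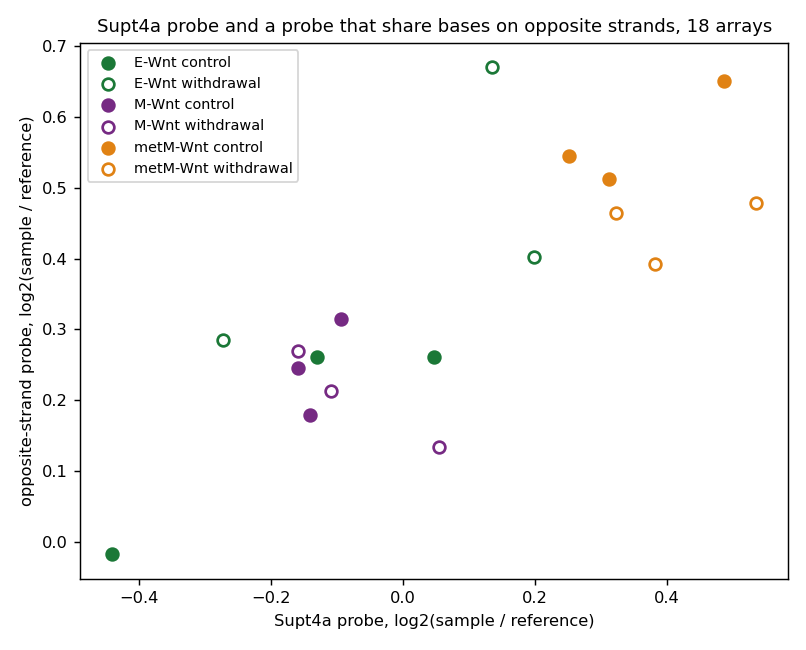
Log2 ratio of the Supt4a probe (x axis) against that of the probe sharing 21 nucleotides on the opposite strand (y axis) on 18 arrays, coloured by line, filled in control medium and open in folic acid-free medium. The metM-Wnt arrays lie to the right of all others, and 2 E-Wnt withdrawal arrays lie as high as metM-Wnt arrays on the y axis.

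Twistnb varied least over the 6 groups. In E-Wnt its log2 ratios were 0.67, 0.63 and 0.28 with folic acid and 0.62, 0.49 and 0.75 without it. In M-Wnt they were 0.72, 0.90 and 0.94 with folic acid and 0.30, 0.39 and 0.27 without it. In metM-Wnt they were 0.42, 0.84 and 0.57 with folic acid and 0.44, 0.33 and 0.16 without it. The M-Wnt arrays split by medium without overlap, which is the contrast that chose Twistnb (a difference of -0.53), and in the other lines the media overlapped. Median centring gave -1.20 for that difference and centring on the tested features -0.88. It was not called within the shared slide, against M-Wnt control replicate 3 alone (-0.62), or without that replicate (-0.49).

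No tested Twistnb difference passed, 0 of 9. Withdrawal in metM-Wnt gave -0.30 (95% CI -0.58 to -0.02, limma, adjusted p = 0.337), and in E-Wnt 0.09 (95% CI -0.19 to 0.37, limma, adjusted p = 0.921). On the slide that holds metM-Wnt arrays of both media the withdrawal difference was -0.17, with withdrawal replicate 1 as the only array without folic acid. The responses of metM-Wnt and E-Wnt differed by -0.39 (95% CI -0.79 to 0.00, limma, adjusted p = 0.384). Across lines without folic acid, both M-Wnt (-0.30, limma, adjusted p = 0.0728) and metM-Wnt (-0.31, limma, adjusted p = 0.0704) lay below E-Wnt with no overlap of arrays, while they differed from each other by -0.01 (95% CI -0.28 to 0.27). With folic acid M-Wnt lay above E-Wnt by 0.32 (limma, adjusted p = 0.0549), again without overlap. The estimates thus had opposite signs in the 2 media, and neither passed. M-Wnt arrays of either medium had a part in choosing Twistnb, which by itself favours these opposite signs. The control-medium difference did pass without E-Wnt control replicate 1 (0.40, limma, adjusted p = 0.0418) or M-Wnt control replicate 1 (0.39, adjusted p = 0.0459), with slide as a random block (0.32, adjusted p = 0.0201) and with centring on the tested features (0.39, adjusted p = 0.0444). In control medium metM-Wnt differed from E-Wnt by 0.09 (95% CI -0.19 to 0.36) and from M-Wnt by -0.24 (95% CI -0.52 to 0.04). The folic acid-free differences from E-Wnt passed under several other settings: with median centring they were -1.04 (limma, adjusted p = 0.0025) and -1.05 (limma, adjusted p = 0.00217), with centring on the tested features -0.63 (limma, adjusted p = 0.00207) and -0.65 (limma, adjusted p = 0.00167), and with the processed signals M-Wnt gave -0.44 (limma, adjusted p = 0.0135).

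**Figure D4:**
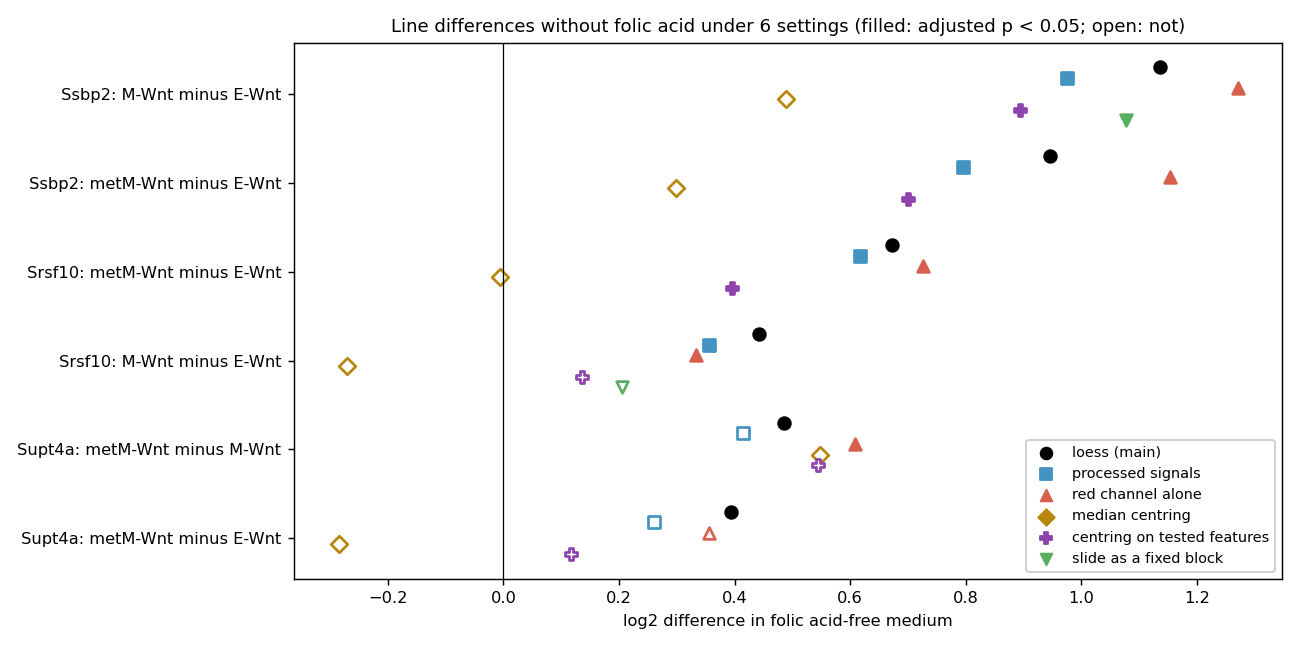
Log2 difference between lines in folic acid-free medium (x axis) for the 6 called pairs of gene and comparison (y axis) under 6 settings, filled where the limma adjusted p is under 0.05. Median centring lies left of loess for each pair but Supt4a between metM-Wnt and M-Wnt, down to -0.28 for Supt4a between metM-Wnt and E-Wnt, and slide as a fixed block could be fitted only for M-Wnt against E-Wnt.

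Ordered by level, Ssbp2 ran from M-Wnt controls through M-Wnt without folic acid, metM-Wnt controls and metM-Wnt without folic acid down to the E-Wnt groups. Arrays of neighbouring groups overlapped except between the first and second group and between metM-Wnt and E-Wnt. Srsf10 began with M-Wnt controls too, followed by metM-Wnt without and with folic acid, M-Wnt without folic acid and E-Wnt without and with it. Its neighbours overlapped except on either side of E-Wnt without folic acid. For Supt4a the metM-Wnt groups came first and the only gap without overlap followed them. For Twistnb all neighbours overlapped. The range of the 6 group means was 1.42 for Ssbp2, 1.06 for Srsf10, 0.59 for Supt4a and 0.54 for Twistnb, wider than in 84.8%, 74.4%, 42.6% and 37.5% of all features.

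Srsf10 and Ssbp2 moved together over the 18 arrays (r = 0.88, and 0.95 over the 6 group means), while the other pairs among the 4 genes had r between -0.39 and 0.35. Both were chosen for being higher in M-Wnt than in E-Wnt controls, which by itself raises their correlation across lines, and arrays of a group are not independent of their line, so these are descriptions. The named genes most like Ssbp2 were BC065403 (r = 0.97 over 18 arrays), the mitochondrial ribosomal protein gene Mrpl51 (r = 0.96) and U90926 (r = 0.88). Those most like Srsf10 were the ubiquitin ligase gene Rnf125 and 2810021J22Rik (r = 0.90 each) and BC065403 (r = 0.86). Supt4a was most like Pdlim5 (r = 0.71), Ubac1 and the vesicle-transport gene Sec22b (r = 0.66 each). Over the 18 arrays no named gene was close to Twistnb, with AY761185 and Fam24b highest at r = 0.59 and BC037704 next at 0.58. Over the 6 group means these genes followed Twistnb more closely, with r = 0.92 for AY761185, 0.83 for Fam24b and 0.94 for BC037704.

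The promoters of Srsf10 and Ssbp2 are shown because both genes were lowest in E-Wnt, an order their choice in part fixed. They are RefSeq windows on build GRCm38.p6, 250 bases before to 50 after the annotated start, both on the plus strand, with capitals where the GC box GGGCGG or the CCAAT box was found.
Srsf10 promoter, chr4:135855821-135856120: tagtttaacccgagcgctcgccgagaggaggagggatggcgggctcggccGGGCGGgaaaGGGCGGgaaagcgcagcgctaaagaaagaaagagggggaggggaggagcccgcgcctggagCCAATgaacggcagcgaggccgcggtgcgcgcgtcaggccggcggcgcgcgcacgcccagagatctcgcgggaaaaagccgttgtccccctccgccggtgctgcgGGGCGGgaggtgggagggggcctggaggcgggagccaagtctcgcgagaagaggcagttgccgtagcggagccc
Ssbp2 promoter, chr13:91460847-91461146: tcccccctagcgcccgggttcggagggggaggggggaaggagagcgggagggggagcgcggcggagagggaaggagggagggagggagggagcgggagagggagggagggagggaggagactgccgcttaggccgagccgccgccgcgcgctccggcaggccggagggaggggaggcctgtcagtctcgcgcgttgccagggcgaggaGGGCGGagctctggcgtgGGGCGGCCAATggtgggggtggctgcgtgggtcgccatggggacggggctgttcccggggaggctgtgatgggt
The Srsf10 window held 3 matches of the GC box and 1 of the CCAAT box, which begins at -129 from the start. The Ssbp2 window held 2 matches of the GC box and 1 of the CCAAT box, which begins at -18 and adjoins a GC box. Of 32851 promoter windows of the same length, 35.7% held the GC box on either strand and 37.4% the CCAAT box. The Supt4a window (chr11:87737301-87737600) held 4 matches of the GC box and 1 of the ETS-type sequence CCGGAAG, found in 8.86% of windows. The TATA box (TATAAA, 13.6% of windows), the E-box (CACGTG, 7.15% of windows) and the cyclic AMP response element (TGACGTCA, 1.79% of windows) matched in none of the 4 windows. The Twistnb window (chr12:33429374-33429673) held no match of any motif searched. CpG dinucleotides numbered 38 in the Srsf10 window, 37 in Supt4a, 28 in Ssbp2 and 14 in Twistnb, against a median of 7 over all windows. The matches are letters in a window and were not set against the expression values.

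Other genes of the same pathways could hardly be measured by name. Of 35 listed SR-type and other splicing factors and kinases, 27 genes of RNA polymerase I transcription, 26 of transcription elongation and 25 of the single-stranded DNA-binding and LIM-domain complex, only Srsf10, Twistnb, Supt4a and Ssbp2 themselves had a named probe. Of the epithelial markers only Ezr was tested, and no mesenchymal, immune, liver or endothelial marker. After loess, Ezr differed from E-Wnt controls by -1.53 in M-Wnt (limma, adjusted p = 0.000224) and by -1.41 in metM-Wnt controls (adjusted p = 0.000548). Without folic acid these differences were -1.83 (limma, adjusted p = 4.32e-05) and -1.53 (adjusted p = 0.000271). Other scalings were not tried for Ezr. With 1 marker alone, the labelled identity of the lines could not be checked further here. A further 8 RNA-handling and chromatin genes had named probes and were listed after their names were seen. On withdrawal limma called 0 of the 8 in any line, where it called 18.4% of all features for M-Wnt, 0.404% for metM-Wnt and 0.0389% for E-Wnt. The U1 snRNP protein gene Snrpc was higher in M-Wnt than in E-Wnt controls by 0.42 (limma, adjusted p = 0.00838) and in metM-Wnt than in E-Wnt controls by 0.34 (adjusted p = 0.0305). Without folic acid Ramac, a partner of the cap methyltransferase, was lower in M-Wnt than in E-Wnt by 0.65 (limma, adjusted p = 0.0132), and the tRNA-splicing gene Tsen15 was higher in metM-Wnt than in E-Wnt by 0.65 (limma, adjusted p = 0.0406). All 4 directions of Snrpc, Ramac and Tsen15 held under each scaling tried, and Ramac passed under each. With the arrays centred on the tested features Snrpc between metM-Wnt and E-Wnt (0.24, limma, adjusted p = 0.202) and Tsen15 (0.51, limma, adjusted p = 0.101) did not pass. Under median centring only Ramac passed. Snrpc then differed from E-Wnt by 0.49 in M-Wnt (limma, adjusted p = 0.148) and by 0.06 in metM-Wnt (adjusted p = 0.87), and Tsen15 by 0.10 (limma, adjusted p = 0.811). With the processed signals the metM-Wnt difference of Snrpc did not pass (0.23, limma, adjusted p = 0.119). After loess, 1 of the 8 was called in each of these 4 comparisons and 0 between metM-Wnt and M-Wnt in either medium. The shares of all features called were 43.4% to 45.6% in the 4 comparisons, well above 1 of 8, and 9.33% and 7.73% between metM-Wnt and M-Wnt.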

How the data were processed

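Per the file headers, the deposited scanner files hold linear spot and background intensity for both colours from Agilent Feature Extraction 10.7.3.1 (165888 spots, 2 per probe). The series table holds the authors' log10 ratio of red (Cy5, sample) over green (Cy3, NIH3T3), with column medians of 0. It equalled the scanner files' own log10 ratio within 0.005. Dyes were not swapped. From the intensities, log2 ratios were computed here with normexp (offset 50) and loess, and spots of a probe were averaged. Probes well above background in red on all 3 arrays of at least 1 group gave 41079 features. They were fitted with limma 3.58.1 (R 4.3.3) as 6 group means, with Benjamini-Hochberg adjustment over all features, a threshold of 0.05 and 12 comparisons. The procedure was tested on simulated data.

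The genes and lists were chosen with earlier results of these data known. The text names the 4 genes, the 3 named genes with the highest correlation to each, and listed genes that were measured. Genes were named by accession through RefSeq: 220 of 19687 probes with an accession. Alternatives covered scaling, filters, slide, replicate number and leaving out arrays. The file headers name another build than GRCm38.p6, and the promoter coordinates are RefSeq's own. The number of arrays limits the precision, and p-values measure the spread between these cultures. The labels give folic acid in µM and the design text in mM.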

Additional observations from a re-analysis of the deposited data

Results flagged for a closer look

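The difference between withdrawal responses of Srsf10 in M-Wnt and in E-Wnt stood out because limma's test of the difference itself passed its threshold. It was -0.62 on the log2 scale (SE 0.17), with a lower ratio without folic acid in M-Wnt (-0.48) and a higher one in E-Wnt (0.14). Srsf10 was chosen on the M-Wnt side of this difference, so the value is a description and that call is not independent evidence. Over arrays that share a slide the difference was -0.78 and was not called, nor was it with the replicate block. With 1 array left out at a time it ranged from -0.70 to -0.54, and the call was lost in 9 of 12 runs. Median centring gave -1.44 and centring on the tested features -1.05, both called. Groups of 3 arrays were too small for a check of single arrays that stand apart.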

How the results depend on the processing

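Of the Ssbp2 and Srsf10 differences from E-Wnt without folic acid, the calls held in each run with 1 array left out, with both other filters, with the processed signals, the series table, the red channel alone, the replicate block and slide as a random block. Exceptions among the other settings were median centring, which ended or turned each of them, and slide as a fixed block, which could be fitted only for M-Wnt against E-Wnt and gave 0.21 for Srsf10. Median centring brought Srsf10 between metM-Wnt and E-Wnt without folic acid to -0.0064. It turned the estimates of Srsf10 between M-Wnt and E-Wnt (-0.27) and of Supt4a between metM-Wnt and E-Wnt (-0.28) negative in that medium, neither called. It ended calls of Ssbp2 without folic acid (0.49 and 0.30), of Srsf10 (0.51) and Supt4a (0.29) between metM-Wnt and E-Wnt controls, and of Supt4a between metM-Wnt and M-Wnt without folic acid (0.55). It made calls of Ssbp2 on withdrawal in M-Wnt (-0.97) and of Twistnb without folic acid (-1.04 and -1.05). It also moved the median difference of the tested features by as much as -0.42. Centring on the tested features instead, an alternative added after seeing the data, kept the calls of Ssbp2 (0.89 and 0.70) and of Srsf10 between metM-Wnt and E-Wnt (0.40) without folic acid. It ended those of Srsf10 between M-Wnt and E-Wnt without folic acid (0.14) and of Supt4a (0.12 from E-Wnt and 0.54 from M-Wnt without folic acid, 0.46 from E-Wnt in control medium). It made calls of Ssbp2 on withdrawal in M-Wnt (-0.65), of Twistnb from E-Wnt (0.39 in M-Wnt controls, -0.63 and -0.65 without folic acid) and of Srsf10 between metM-Wnt and M-Wnt controls (-0.50). The cause was not tested.

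For the fragile Supt4a calls without folic acid, the processed signals and the series table gave 0.41 from M-Wnt and 0.26 from E-Wnt, the red channel alone 0.35 from E-Wnt, no filter on dim probes 0.48 from M-Wnt (adjusted p = 0.052) and the compared arrays alone 0.39 from E-Wnt (adjusted p = 0.108), all short of the threshold in limma. Leave-one-out values were 0.42 to 0.55 and 0.25 to 0.48. New calls came for Twistnb between M-Wnt and E-Wnt without folic acid (-0.44 with the processed signals and the series table, -0.28 with slide as a random block), between metM-Wnt and E-Wnt without it (-0.45 red alone, -0.31 random block) and between M-Wnt and E-Wnt controls (0.32 random block, 0.20 to 0.40 leave-one-out, called without E-Wnt control replicate 1 or M-Wnt control replicate 1). Srsf10 between metM-Wnt and M-Wnt without folic acid was 0.39 with the red channel alone. The slide correlation of the random block was -0.142, which narrows its errors.

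The replicate numbers gave no sign of pairing the arrays: same-number deviations correlated from -0.65 to 0.55, and 3 of 9 pairs exceeded 0.1. Different-number deviations correlated from -0.573 to 0.698. Deviations from a mean of 3 arrays must balance, so this check cannot settle whether a pairing existed. A replicate block left Supt4a between metM-Wnt and M-Wnt without folic acid at 0.48 (adjusted p = 0.0734), changed no other tested call of the 4 genes, ended 2 described ones (Supt4a between metM-Wnt and M-Wnt controls, and the Srsf10 responses of M-Wnt and E-Wnt), and gave 36 called features on withdrawal in metM-Wnt and 8 for the difference of responses between metM-Wnt and E-Wnt.

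Counts of called features moved more. Withdrawal in E-Wnt (16) gave 10 with the processed signals or series table, 7 with median centring, 9 with no filter, 37 red alone, 6 with slide fixed or shared, 106 with slide random, 1 with the compared arrays alone and 6 to 159 leave-one-out. Withdrawal in M-Wnt (7563) gave 2023 with slide fixed or shared, 14984 alone and 3994 to 6053 leave-one-out. Withdrawal in metM-Wnt (166) gave 285 and 292 with the processed signals and series table, 95 with the filter on all arrays, 18 with median centring, 666 with slide random and 17 to 133 leave-one-out. It gave 0 with slide fixed or shared and with the compared arrays alone (limma, 3276 and 5510 at an unadjusted p under 0.05). M-Wnt against E-Wnt gave 12478 (median centring) and 10520 (slide fixed) of 18724 in control medium, and 8400 (slide fixed) of 18469 without folic acid. For metM-Wnt against M-Wnt, the controls (3832) gave 844 with median centring, 6695 with slide random and 2031 to 3176 leave-one-out. Without folic acid (3177) they were 556, 5790 and 1470 to 2626, with 6134 red alone and 4829 for the compared arrays. The differences between responses gave, for M-Wnt and E-Wnt (2820), 1148 with median centring, 229 with slide fixed or shared, 6003 with slide random and 1621 to 5179 leave-one-out. For metM-Wnt and M-Wnt (2092) these were 251, 204, 3615 and 1109 to 2441, with 4520 for the compared arrays. For metM-Wnt and E-Wnt (35) they were 4, 4, 344 and 11 to 757, with 19 from the processed signals and series table, 15 red alone and 3 for the compared arrays. Median centring lowered the share of calls in the upward direction from 54.4% to 7.91% on withdrawal in M-Wnt, from 52.3% to 19.9% for M-Wnt and from 50.7% to 16.9% for metM-Wnt against E-Wnt without folic acid, and the processed signals gave 37.6% on withdrawal in M-Wnt. Centring on the tested features moved 4 counts past 1.5 times, to 88 for withdrawal in metM-Wnt, 1888 for metM-Wnt against M-Wnt without folic acid, and 1234 and 16 for the differences between responses of metM-Wnt and M-Wnt and of metM-Wnt and E-Wnt. Trying each probe alone gave no other value, since each gene has 1 probe.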
